A study of Schizosaccharomyces pombe with 9 samples.

Results

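The 196 RNAs described here are antisense RNAs of Schizosaccharomyces pombe, each named after a locus (its partner) counted among the coding genes. In the reference annotation used below, 192 of them overlapped that partner on the other strand. They were selected on their counts from the 634 RNAs of the deposited annotation whose name holds "-antisense-", among 6988 gene IDs in all. An antisense RNA was kept when its mean raw count over the 9 libraries was at least 100 and its partner's mean raw count over the 3 WT libraries was under 2000. Of the 634, 228 reached the count minimum, and of these 27 had a partner at or above the ceiling and 5 had no partner row in the count table. The rule thus used the level of each antisense RNA over all libraries and the level of each partner in WT, and neither is a finding below.

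An antisense RNA is transcribed from the DNA strand opposite a gene, so its sequence is complementary to all or part of the mRNA. In fission yeast many such RNAs arise from starts inside or beyond a gene, from divergent promoters, or by reading on from a convergent neighbor, and they are kept low by histone deacetylation, by nucleosome assembly behind the polymerase and by the exosome, which degrades RNA from its 3′ end. Transcription of one strand can interfere with that of the other, and meiotic genes are known to be covered by antisense RNA during vegetative growth. Snf22 is an ATPase of SWI/SNF, a complex that moves and removes nucleosomes.

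The 9 libraries came from haploid h- cells in log phase at 30°C in YES, a rich medium, with 3 biological replicates of each genotype. These were a wild type (WT), one with kanMX in place of the snf22 coding sequence from the start codon through most of its length (snf22∆), and one whose Snf22 carries D996A-E997A in the ATPase site (snf22-(D996A-E997A), the point mutant), which the labels also give as carrying kanMX. No marker is named for WT, and in the point mutant it sits downstream of snf22 after a polyadenylation site taken from nmt1, so the marker, the added site and the mutation cannot be told apart. Stranded poly(A)+ RNA was sequenced, and the total count per library was 15696972 to 22664218. Normalized counts, which are counts scaled to a common effective library size, are given below for replicates 1, 2 and 3 in that order.

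Counts of the targeted transcript, snf22, were 2784 ± 48.6 (WT), 1357 ± 126 (snf22∆) and 2183 ± 189.7 (point mutant), normalized (SD, n = 3), and the deletion leaves the end of the gene in place. WT replicate 2 and snf22-(D996A-E997A) replicate 1 stood apart from the other 2 libraries of their group (chi-square per gene 59.8 and 71.6 in WT, against 9.31 between the other 2, and 33.7 and 35.8 against 5.26), and counts of calls without them are given where they matter. Of the markers of the labelled M mating type, 7 were looked up and mat1-Mc was listed at 0 in every library. The summed level of the 7 was 4566 to 4762 in WT, 2540 to 3394 in the deletion and 8833 to 9382 in the point mutant. By the test described below, 5 of the 6 M markers tested fell in the deletion at the adjusted p alone, and sxa2 rose. All 6 rose in the point mutant. Of 4 P mating type markers 3 were found, at a summed 13610 to 18890 in every library, nearly all of it sxa1, whose mean was 15440 (WT), 14220 (the deletion) and 14050 (the point mutant). The mean of map3 was 395.4, 380.5 and 412.1 in that order, and that of map2 210.5, 144.5 and 87.5. By the same test map2 was lower past the adjusted p in both mutants and reached 2-fold in the point mutant alone. The part of these levels in the results below was not tested.

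The names were checked against the positions in a reference annotation of a later genome version. All 196 RNAs and 194 of their partners were found there, and 192 RNAs overlapped their partner on the other strand. The 4 others were ppk3-antisense-1 and mde1-antisense-1, which lie opposite a different gene than the one the name gives, and those of SPCC18B5.02c and SPBPB21E7.08, whose partners were not located. Among the 192, an RNA covered a median of 91.7% of its partner's annotated length. The whole partner was covered by 59, its start but not its end by 61, its end but not its start by 40, and 32 lay inside it. A further counted gene was overlapped on the RNA's own strand by 44 of the 196, and on the other strand, besides the partner, by 57, so some counts may be divided among overlapping genes.

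The partners are unlike each other in role. By the product text of the deposited annotation, 56 encode enzymes, 24 have names or products of meiosis and mating, 23 serve RNA metabolism and translation, 12 are kinases, phosphatases and GTPases (a word match that also takes the metabolic enzymes fbp1 and gal1), 8 are transporters, 8 act in transcription and chromatin, 13 have no known function and 52 fall in none of these. Each of the 196 has a partner of its own.

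The RNAs were a small and even part of every library, 0.31% to 0.335% of its counts. The median level in WT was 224 normalized counts, with a range from 56.3 to 2523. Just inside the count minimum were mcb1-antisense-1 and acr1-antisense-1, with mean raw counts of 100.3 and 100.9, and just outside it mcp1-antisense-1, pep3-antisense-1 and mfs1-antisense-1, with 99.8, 96.1 and 96.0. Just inside the ceiling were the partners SPBC21C3.09c, rad8 and ubx3, with mean raw counts of 1936, 1831 and 1811 in WT, and just outside it byr1, pbi2 and nte1, with 2061, 2187 and 2191.

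The highest level was that of spo4-antisense-1 (SPNCRNA.1644), opposite a protein kinase of the DDK family needed for meiosis. Its normalized count was 2355, 2978 and 2235 in WT, 1605, 1714 and 1485 in snf22∆ and 2092, 1954 and 1926 in snf22-(D996A-E997A). The sense transcript spo4 was at 6.83, 19.3 and 31.1 in WT, 0, 1.73 and 3.93 in snf22∆ and 1.97, 0 and 0 in snf22-(D996A-E997A). The antisense RNA was lower in both mutants than in every WT library, and nearly all counts of the locus came from the antisense strand in all 9 libraries. The locus of SPBC28E12.02, an RNA-binding protein, was alike: its antisense RNA was at 1385, 1643 and 1456 in WT, 1576, 1582 and 1489 in snf22∆ and 1208, 1331 and 1318 in snf22-(D996A-E997A). The mRNA was at 2.93, 11.3 and 25.9 in WT, 13.1, 7.8 and 13.8 in snf22∆ and 2.95, 1.97 and 2.05 in snf22-(D996A-E997A). This antisense RNA overlapped between snf22∆ and WT (log2 fold change 0.05, adjusted p = 0.601) and was lower in the point mutant (−0.22, adjusted p = 0.0431), under 2-fold.

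Other RNAs of high level were gnr1-antisense-1 (SPNCRNA.1158), opposite a G protein beta subunit, ppk3-antisense-1 (SPNCRNA.1421) and SPBC215.07c-antisense-1 (SPNCRNA.1658), with 1708 ± 118, 1491 ± 136 and 1572 ± 145 normalized counts in WT (SD, n = 3). A high count of antisense relative to partner was also seen at mug93, mag2 and SPBC56F2.03, whose mRNAs were at no more than 23.3 normalized counts in any library. Counts of an RNA and its partner are not scaled by length, so only their change over the genotypes is read. The antisense RNA had more counts than its partner at 84 of the 196 loci in WT. In snf22∆ there were 67 such loci and in snf22-(D996A-E997A) 71. Partners were selected on a low level in WT, so these numbers depend in part on the rule.

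Each mutant was compared with WT across all 6091 genes that passed a filter on low counts, which all 196 RNAs and 191 of the partners passed. The limits for a call were 0.05 for the adjusted p (edgeR's quasi-likelihood test, Benjamini-Hochberg adjustment over all genes tested), 2-fold for the change, and 100 normalized counts for the mean of the higher group. Since RNA came from whole cultures, fewer cells of a kind and less RNA per cell cannot be told apart. Both mutants are set against the same 3 WT libraries.

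In snf22∆, 10 of the 196 antisense RNAs rose and 19 fell relative to WT, beside 2.56% higher and 3.09% lower among all genes tested. These are shares of 5.1% and 9.69%, and among the 383 other antisense RNAs tested 1.57% rose and 9.92% fell. A call needed a mean of at least 100 normalized counts in the higher group, and the 196 were selected on a similar level. Most of the other antisense RNAs lay under the count minimum, and the set of all genes was not selected on level. Differences between these shares thus depend in part on the rule. The median log2 fold change was −0.13 for the 196, against −0.44 for the other antisense RNAs and 0.02 for all genes. With no fold limit, 41 rose (20.9%, all genes 30.2%) and 71 fell (36.2%, all genes 25.8%). Without WT replicate 2, 9 rose and 16 fell.

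In snf22-(D996A-E997A), 10 rose and 24 fell, beside 1.9% higher and 3.07% lower among all genes. The shares were 5.1% and 12.2%, and 1.04% and 13.6% of the other antisense RNAs. The median log2 fold change was −0.14 for the 196 and −0.87 for the other antisense RNAs, with the same limits to the comparison. With no fold limit, 47 rose (24%, all genes 25.8%) and 64 fell (32.7%, all genes 22.7%). Without WT replicate 2 the counts were 9 and 20, and without snf22-(D996A-E997A) replicate 1 they were 10 and 25.

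**Figure D1:**
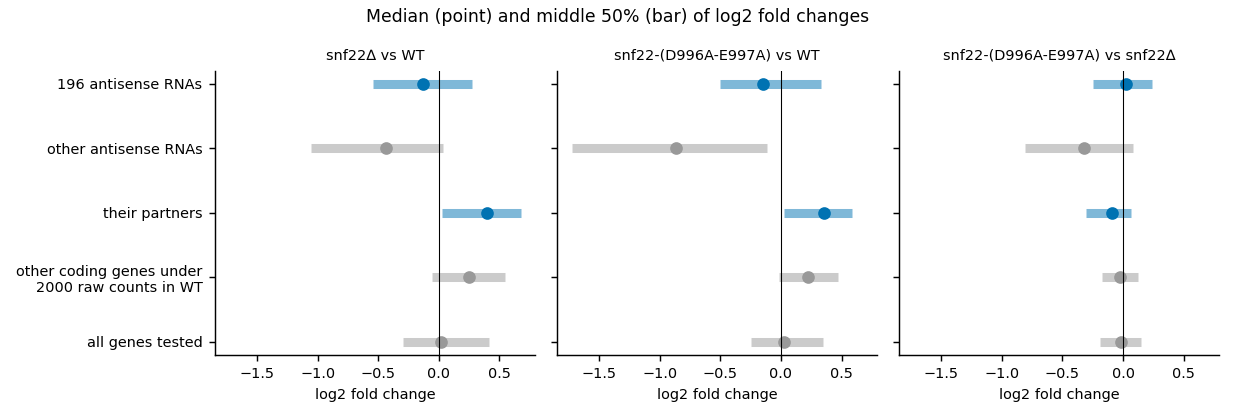
Median (point) and middle 50% (bar) of the log2 fold changes (x axis) of the 196 antisense RNAs, the other antisense RNAs, the partners of the 196, the other coding genes under 2000 raw counts in WT, and all genes tested, for 3 comparisons. In both mutants relative to WT the 196 center just below 0 (−0.13 and −0.14), the other antisense RNAs lower (−0.44 and −0.87) and the partners above 0 (0.40 and 0.36). The other antisense RNAs differ in level and in opposite-strand counts, so they are not a matched set.

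The libraries differed in how many antisense counts lay opposite strong mRNAs. For the 16 antisense RNAs whose partner had 20000 or more raw counts in WT, none of them among the 196, the antisense counts were 0.277%, 0.6% and 1.25% of the partner counts in the 3 WT libraries, 0.175%, 0.195% and 0.303% in snf22∆ and 0.192%, 0.179% and 0.147% in snf22-(D996A-E997A). WT replicate 3 was the highest. If every gene gave this share of its counts to the other strand, it would make up a median of 0.398% to 2.47% of the count of an antisense RNA among the 196, depending on the library, and over 10% in at least 1 library for 37 of them. With that share subtracted, a setting chosen after seeing the data, all 29 calls in snf22∆ and 32 of 34 in snf22-(D996A-E997A) were kept. The lost falls were mrpl4-antisense-1, at a log2 fold change of −0.95 in place of −1.03, and SPBC1604.04-antisense-1, at −1.04 without it. For the latter the share came to up to 194% of the count, and subtraction left it at 0 in all 3 WT libraries and above 0 in the mutants, so that its direction turned and neither is read. The calls gained were SPBC23G7.13c-antisense-1 (1.01 in place of 0.998) and mss1-antisense-1 (−1.01 in place of −0.99) in snf22∆ and SPAPB15E9.02c-antisense-1 (1.54 in place of 0.83) in the point mutant.

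**Figure D2:**
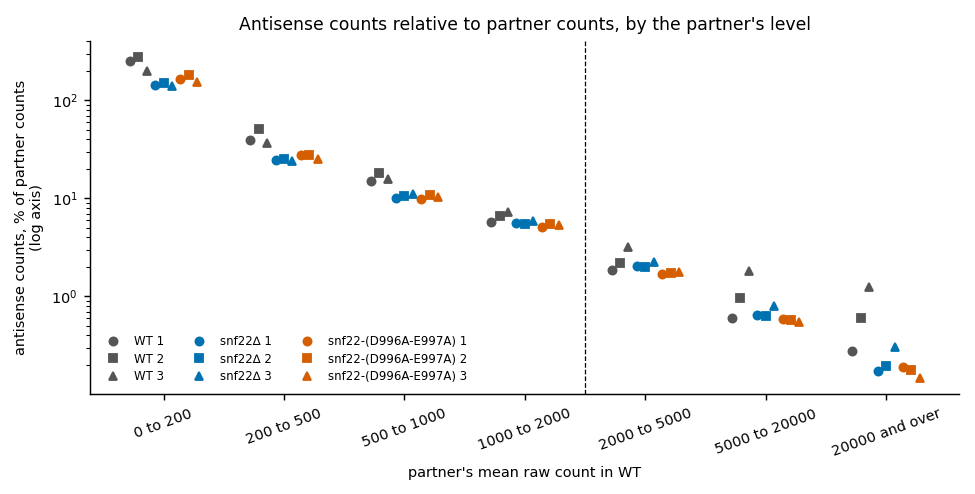
Summed antisense counts as a percentage of summed partner counts (y axis, log), for pairs sorted by the partner's mean raw count in WT (x axis), with a point for each of the 9 libraries. Left of the dashed line are the bins under 2000 raw counts, which hold the 196. At 20000 and over, WT replicate 3 (1.25%) and WT replicate 2 (0.6%) lie highest.

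The largest fall was that of lid2-antisense-1 (SPNCRNA.1557), which lies inside lid2, the gene of an H3 lysine 4 demethylase. Its normalized count was 428, 556 and 408 in WT, 49.9, 36.4 and 51.1 in snf22∆ and 55, 52.1 and 52.3 in snf22-(D996A-E997A). Both mutants were far below every WT library, in snf22∆ (log2 fold change −3.34, standard error 0.18, adjusted p = 9.9e-08) as in snf22-(D996A-E997A) (log2 fold change −3.12, standard error 0.18, adjusted p = 3.27e-07). The lid2 mRNA stood at 1961, 2091 and 1905 in WT, 1678, 1759 and 1798 in snf22∆ and 1782, 1498 and 1567 in snf22-(D996A-E997A). Its change was under 2-fold, at log2 values of −0.19 (adjusted p = 0.0603) and −0.30 (adjusted p = 0.00999). The antisense RNA passed the count minimum through WT, where its raw counts were 438, 490 and 315.

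The next largest fall in snf22∆ was hop1-antisense-1 (SPNCRNA.1602), opposite a meiotic chromosome axis gene, at 971, 1167 and 919.5 in WT, 137, 162 and 182 in snf22∆ and 417, 366 and 388 in snf22-(D996A-E997A). It differed between the mutants too, with all 3 snf22∆ libraries lowest and no overlap among the 3 genotypes. The log2 fold change was −2.67 (adjusted p = 6.38e-08) in snf22∆, −1.39 (adjusted p = 1.14e-05) in snf22-(D996A-E997A) and 1.28 (adjusted p = 6.83e-05) between the mutants, snf22-(D996A-E997A) being higher. The hop1 mRNA was at 8.79, 14.8 and 27.2 in WT, 36.8, 25.1 and 35.4 in snf22∆ and 36.4, 22.6 and 17.4 in snf22-(D996A-E997A), and its change was not called (adjusted p = 0.0546 and 0.219).

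SPAC688.12c-antisense-1 (SPNCRNA.889), opposite a gene specific to Schizosaccharomyces, was at 224, 224 and 265 in WT, 39.4, 51.1 and 43.3 in snf22∆ and 39.3, 55.1 and 50.2 in snf22-(D996A-E997A). Its fall was 5.3-fold and 4.92-fold, with no overlap with WT in either mutant. The partner's normalized count went from 525 ± 104 in WT to 1011 ± 67.5 in the deletion and 948 ± 98.7 in the point mutant (SD, n = 3), under the 2-fold limit but past the adjusted p (log2 fold change 0.95, adjusted p = 0.000207, and 0.85, adjusted p = 0.000546). Its antisense RNA overlaps SPAC688.11 on its own strand.

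sgt1-antisense-1 (SPNCRNA.763) was at 585, 966 and 678 in WT, 142, 165 and 156 in snf22∆ and 325, 198 and 186 in snf22-(D996A-E997A), lower in every mutant library than in any WT library, and the log2 fold changes were −2.27 (adjusted p = 2.01e-05) and −1.65 (adjusted p = 0.000223). Its partner, given as an snRNP-binding protein, rose by less than 2-fold (0.89, adjusted p = 0.000552, and 0.74, adjusted p = 0.00228, on the log2 scale). Up to 28.7% of its count in 1 library could be the opposite-strand share. pof9-antisense-1 (SPNCRNA.1471), opposite an F-box protein of ubiquitin ligases, was at 481, 387 and 414 in WT, 110.2, 125 and 104 in snf22∆ and 107, 153 and 172 in snf22-(D996A-E997A), and the log2 fold changes were −1.92 (adjusted p = 8.85e-06) and −1.57 (adjusted p = 4.8e-05). Its mRNA was higher in snf22∆ (log2 fold change 0.43, adjusted p = 0.00168) and not past the test in snf22-(D996A-E997A) (0.09, adjusted p = 0.416).

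Falls of a similar size in both mutants were seen at vrs2, the mitochondrial valine-tRNA ligase, at brl1, a subunit of the ligase that ubiquitinates histone H2B, and at ctf8, a subunit of a clamp loader. vrs2-antisense-1 (SPNCRNA.838) went from 249 ± 7.02 in WT to 80.6 ± 8.3 and 85.2 ± 11.8 (SD, n = 3). brl1-antisense-1 (SPNCRNA.1276) went from 667 ± 109.5 to 238 ± 6.41 and 308 ± 76.1, and ctf8-antisense-1 (SPNCRNA.1060) from 198 ± 16 to 78.1 ± 5.12 and 90.0 ± 5.04. Without WT replicate 2 or snf22-(D996A-E997A) replicate 2, the fall of brl1-antisense-1 in the point mutant was under 2-fold (−0.99 and −0.96 on the log2 scale). The other called falls in snf22∆ were those of rex3, pku70, pfd1, mug74, wtf11, SPAC890.05, prp22, SPCC757.13, arb1, SPAC56F8.12 and pim1, with log2 fold changes from −1.34 to −1.01. In snf22-(D996A-E997A) they were those of prp22, fus1, rex3, pim1, SPAC890.05, pfd1, wtf11, rav1, SPCC757.13, SPBC1604.04, mrpl4 and cwf19, from −1.51 to −1.0, beside those of the genes named singly.

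Several antisense RNAs fell in snf22-(D996A-E997A) with a smaller or no fall in snf22∆, and for these the mutants were also compared directly. hrp1-antisense-1 (SPNCRNA.803), opposite the gene of a CHD chromatin remodeler, was at 199, 311 and 252 in WT, 122, 134 and 148 in snf22∆ and 60.0, 38.4 and 49.2 in snf22-(D996A-E997A). The 3 genotypes did not overlap, and the log2 fold change was −0.92 (adjusted p = 0.00229) in snf22∆, −2.36 (adjusted p = 1.03e-05) in snf22-(D996A-E997A) and −1.45 (adjusted p = 0.000972) between them. The hrp1 mRNA rose in both, by 0.54 and 0.54 on the log2 scale, without reaching 2-fold.

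osh3-antisense-1 (SPNCRNA.747), opposite a sterol transfer protein, was at 114, 176 and 123 in WT, 140, 169 and 146 in snf22∆ and 28.5, 58 and 43 in snf22-(D996A-E997A). WT and snf22∆ overlapped (log2 fold change 0.14, adjusted p = 0.627), and snf22-(D996A-E997A) was below both, with −1.67 (adjusted p = 0.000472) against WT and −1.81 (adjusted p = 0.000602) against snf22∆. SPCC550.03c-antisense-1 (SPNCRNA.1178), opposite the helicase Ski2 of cytoplasmic RNA decay, gave the same order, with 137, 203 and 161 in WT, 129.5, 154 and 169 in snf22∆ and 60.0, 62.9 and 71.7 in snf22-(D996A-E997A). Its log2 fold changes were −0.15 (adjusted p = 0.504), −1.36 (adjusted p = 0.000255) and −1.21 (adjusted p = 0.0013).

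SPBC1773.12-antisense-1 (SPNCRNA.1338) was at 203, 213 and 223 in WT, 153, 152 and 183 in snf22∆ and 57, 90.5 and 76.8 in snf22-(D996A-E997A), and its partner, a zinc cluster transcription factor, at 125, 111 and 97.3 in WT, 98, 92.8 and 104 in snf22∆ and 42.3, 43.3 and 51.2 in snf22-(D996A-E997A). Both strands were lower in snf22-(D996A-E997A) than in any other library, with log2 fold changes relative to WT of −1.51 for the antisense RNA and −1.29 for the mRNA (adjusted p = 7.41e-05 and 0.000224). In snf22∆ neither passed the test (adjusted p = 0.0644 and 0.367). Between the mutants the antisense RNA differed by −1.12 on the log2 scale (adjusted p = 0.00145), and by −0.96 without snf22-(D996A-E997A) replicate 1. It was the only pair among the 191 with both strands called lower in a mutant relative to WT.

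**Figure D3:**
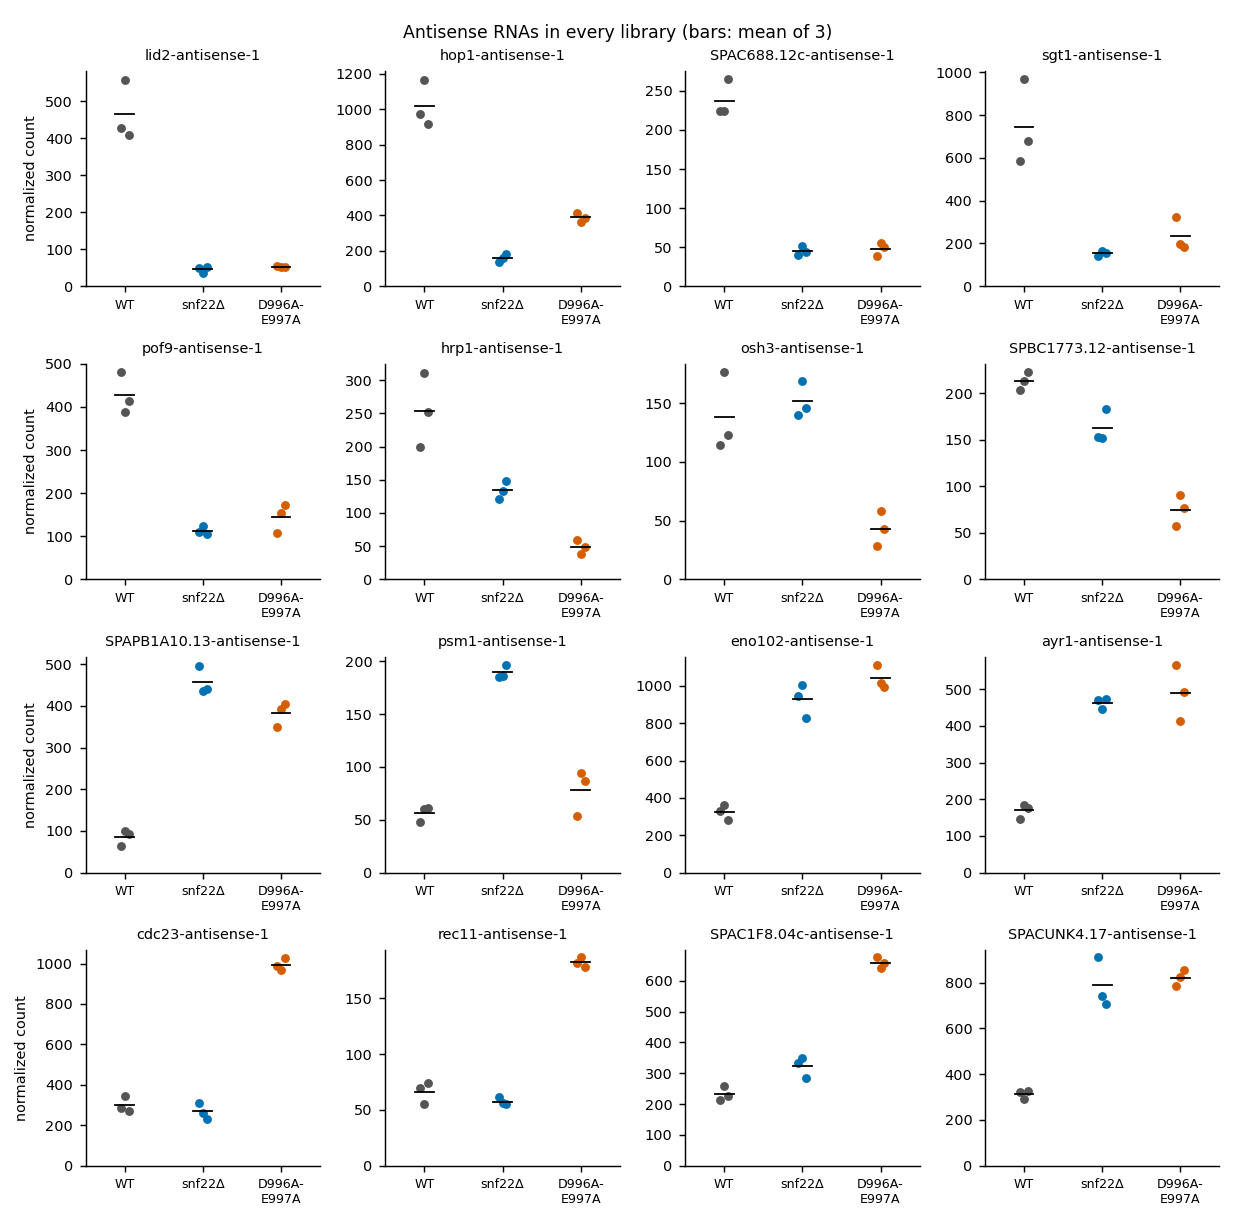
Normalized counts (y axes, each from 0) of 16 of the antisense RNAs in the 3 libraries of each genotype (x axis; gray WT, blue snf22∆, orange snf22-(D996A-E997A)), with bars at the mean. lid2-antisense-1 and SPAC688.12c-antisense-1 are low in both mutants, hrp1-antisense-1 and osh3-antisense-1 are lowest in snf22-(D996A-E997A), and cdc23-antisense-1 and rec11-antisense-1 are high in snf22-(D996A-E997A) alone.

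The largest rise was SPAPB1A10.13-antisense-1 (SPNCRNA.769), opposite the start of a gene specific to Schizosaccharomyces. With raw counts of 66, 88 and 72 in WT, it passed the count minimum through the mutants. Its normalized count was 64.4, 99.9 and 93.4 in WT, 496, 437 and 441 in snf22∆ and 349, 393 and 405 in snf22-(D996A-E997A). Every mutant library was above every WT library, a rise of 5.36-fold in snf22∆ (log2 fold change 2.42, standard error 0.16, adjusted p = 5.78e-07) and 4.48-fold in snf22-(D996A-E997A) (log2 fold change 2.16, standard error 0.16, adjusted p = 2.11e-06). The mRNA rose too, with 1173, 929 and 1088 in WT, 2324, 2239 and 2203 in snf22∆ and 1724, 2151 and 2223 in snf22-(D996A-E997A), and was called in snf22∆ (log2 fold change 1.08, adjusted p = 1.55e-05) but was under 2-fold in snf22-(D996A-E997A) (0.93, adjusted p = 6.25e-05). Without WT replicate 2 the rise of SPAPB1A10.13 in snf22∆ was 0.96, under 2-fold. In the WT libraries up to 14.5% of the antisense count could be the opposite-strand share.

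eno102-antisense-1 (SPNCRNA.1302), opposite an enolase gene, was at 329, 362 and 279 in WT, 945, 1007 and 830.1 in snf22∆ and 1113, 1016 and 995 in snf22-(D996A-E997A). Both mutants were above WT, and the log2 fold changes were 1.52 (adjusted p = 1.69e-06) and 1.69 (adjusted p = 1.2e-06). The eno102 mRNA was at 104, 219 and 135 in WT, 246, 177 and 177 in snf22∆ and 532, 388 and 526 in snf22-(D996A-E997A). It did not pass the test in snf22∆ (0.40, adjusted p = 0.2) and rose in snf22-(D996A-E997A) (1.66, adjusted p = 0.000397), so that the mRNA differed between the mutants (1.27, adjusted p = 0.00432) while the difference in the antisense RNA was not past the test (0.17, adjusted p = 0.326).

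ayr1-antisense-1 (SPNCRNA.980), opposite a reductase of lipid synthesis, was at 146, 185 and 176 in WT, 469.8, 446 and 473 in snf22∆ and 567, 413 and 492 in snf22-(D996A-E997A). It rose 2.74-fold in snf22∆ and 2.9-fold in snf22-(D996A-E997A) (adjusted p = 1.3e-05 and 1.18e-05). The ayr1 mRNA was 460.1 ± 13.6 in WT, 407 ± 23.5 in the deletion and 424 ± 26.7 in the point mutant (SD, n = 3), with adjusted p = 0.153 and 0.345.

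At SPACUNK4.17, a dehydrogenase gene, the strands moved in opposite directions, the only such pair with both called. SPACUNK4.17-antisense-1 (SPNCRNA.857) was at 323, 293 and 328 in WT, 912, 744 and 708 in snf22∆ and 784, 824 and 854 in snf22-(D996A-E997A), and the mRNA at 1213, 2016 and 1148 in WT, 773, 820.2 and 852 in snf22∆ and 495, 424 and 466 in snf22-(D996A-E997A). The antisense RNA rose in both mutants (log2 fold change 1.32, adjusted p = 4.59e-06, and 1.38, adjusted p = 4.16e-06), while the mRNA fell by 0.84 in snf22∆ (adjusted p = 0.00228, under 2-fold) and by 1.66 in snf22-(D996A-E997A) (adjusted p = 4.7e-05).

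Rises called in snf22∆ but not in snf22-(D996A-E997A) were those of psm1, tti1, SPAC1834.13, SPAPB15E9.02c, SPAC1039.08 and SPAC11D3.18c, of which SPAPB15E9.02c-antisense-1 was called in both mutants with the opposite-strand share subtracted. psm1-antisense-1 (SPNCRNA.1525), inside the gene of a cohesin ATPase, was at 47.8, 60.2 and 61 in WT, 186, 186 and 197 in snf22∆ and 53.1, 94.4 and 87.1 in snf22-(D996A-E997A). It passed the count minimum through snf22∆, where its raw counts were 212, 215 and 200. It was higher in snf22∆ than in WT (log2 fold change 1.75, adjusted p = 7.24e-05) and than in snf22-(D996A-E997A) (−1.28, adjusted p = 0.00147, for snf22-(D996A-E997A) against snf22∆), and the point mutant was not past the test against WT (0.48, adjusted p = 0.0952). tti1-antisense-1 (SPNCRNA.1195), opposite a subunit of the ASTRA complex, rose in both, by 1.17 and 0.83 on the log2 scale, and only the first reached 2-fold. The difference between the mutants at tti1 was not past the test (adjusted p = 0.118). The antisense RNAs of SPAC1039.08 and SPAC11D3.18c also rose past the adjusted p in the point mutant, and neither differed past it between the mutants. Both passed the count minimum through the mutants, with raw counts of 93, 100 and 92 and of 69, 44 and 73 in WT.

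SPAC1834.13-antisense-1 (SPNCRNA.1018), opposite a locus given as dubious, was at 132, 167 and 99.9 in WT, 281, 316 and 307 in snf22∆ and 171, 172 and 152 in snf22-(D996A-E997A), and overlaps SPAC17D4.01 on its own strand. The paper lists SPAC17D4.01, which is pex7, as strongly lower in both mutants, and the part of this overlap in the rise was not tested. SPAPB15E9.02c-antisense-1 (SPNCRNA.954), also opposite a dubious locus, was at 440.2, 597 and 495 in WT, 1271, 1243 and 1244 in snf22∆ and 938, 966 and 815 in snf22-(D996A-E997A). Up to 75.4% of its count could be the share from the strand opposite, where the further gene SPAPB15E9.01c lies. Its rise in snf22∆, 1.29 on the log2 scale, stayed called with that share subtracted, and its log2 fold change in the point mutant went from 0.83 to 1.54 (adjusted p = 0.00166), which was then called too.

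In snf22-(D996A-E997A) the largest rise called there and not in snf22∆ was cdc23-antisense-1 (SPNCRNA.1665), opposite the gene of the replication factor Mcm10. It was at 286, 344 and 272 in WT, 309.7, 263 and 233 in snf22∆ and 986, 968 and 1027 in snf22-(D996A-E997A). Every point mutant library was above every other library. The log2 fold changes were 1.72 (adjusted p = 1.96e-06) against WT and 1.89 (adjusted p = 1.66e-06) against snf22∆, and WT and snf22∆ overlapped (−0.16, adjusted p = 0.3). The cdc23 mRNA was 453 ± 87 in WT, 745 ± 55.1 in the deletion and 611 ± 65.6 in the point mutant (SD, n = 3), and its change was under 2-fold.

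rec11-antisense-1 (SPNCRNA.1180), inside the gene of a meiotic cohesin subunit, showed the same order, with 69.3, 55.6 and 73.9 in WT, 61.2, 56.4 and 55.1 in snf22∆ and 182, 187 and 178 in snf22-(D996A-E997A). It rose 2.75-fold against WT (adjusted p = 4.44e-05) and 3.16-fold against snf22∆ (adjusted p = 3.36e-05). This RNA passed the count minimum through the point mutant, where its raw counts were 185, 190 and 174. SPAC1F8.04c-antisense-1 (SPNCRNA.605), opposite a hydrolase gene, was at 213, 258 and 226 in WT, 332, 350.3 and 283 in snf22∆ and 676, 640.1 and 656 in snf22-(D996A-E997A). It rose past the test in both mutants (log2 fold change 0.47, adjusted p = 0.00608, and 1.5, adjusted p = 3.33e-06), and reached 2-fold in the point mutant alone and against snf22∆ (1.03, adjusted p = 0.000111). Without snf22∆ replicate 3 the difference of SPAC1F8.04c-antisense-1 between the mutants was 0.94. It overlaps the non-coding SPNCRNA.139 on its own strand. The divergent neighbor of this RNA is str3, a plasma membrane heme transporter gene, whose mRNA rose by 2.07 (adjusted p = 0.0232) and 6.42 (adjusted p = 6e-06) on the log2 scale.

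For the pseudogene SPBPB21E7.08, which was not located, the antisense RNA and the sense transcript were both highest in snf22-(D996A-E997A). SPBPB21E7.08-antisense-1 (SPNCRNA.1305) was at 160.1, 207 and 213 in WT, 228, 183 and 203 in snf22∆ and 513, 546 and 483 in snf22-(D996A-E997A), and SPBPB21E7.08 itself at 1042, 951 and 1044 in WT, 175, 146 and 149.5 in snf22∆ and 2273, 1838 and 2038 in snf22-(D996A-E997A). The antisense RNA did not differ past the test between snf22∆ and WT (0.09, adjusted p = 0.626) where the sense transcript fell 6.44-fold (adjusted p = 8.46e-09). In snf22-(D996A-E997A) both rose against WT, by 1.42 and 1.02 on the log2 scale, the latter close to the 2-fold limit. For SPBPB21E7.08 it was under that limit with RLE size factors or DESeq2 (0.99), without WT replicate 2 (0.96) and without snf22-(D996A-E997A) replicate 1 (0.94). A rise in snf22-(D996A-E997A) was also called for the antisense RNAs of gto1 (1.07) and SPAC4A8.10 (1.09). With raw counts of 112, 73 and 102 in WT, gto1-antisense-1 passed the count minimum through the mutants.

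The direct comparison of the mutants called 12 antisense RNAs, of which the point mutant had 7 at a higher and 5 at a lower level than the deletion, beside 0.969% and 0.887% of all genes. These are 3.57% and 2.55% of the 196, which, unlike all genes, were selected on a level that lets them be called. Besides those named, rhp16-antisense-1 was higher by 1.13, and SPCC569.02c-antisense-1 (SPNCRNA.1298), at 87.8, 143 and 86.9 in WT, 65.6, 40.8 and 70.8 in snf22∆ and 174, 144 and 148 in snf22-(D996A-E997A), by 1.40 on the log2 scale (adjusted p = 0.00282). Its order was snf22∆ lowest and snf22-(D996A-E997A) highest, with WT overlapping neither snf22∆ nor snf22-(D996A-E997A). This RNA passed the count minimum through the point mutant, where its raw counts were 177, 147 and 144.

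The partners were measured in the same libraries. Their level in WT entered the rule, so they are set beside the 3067 other coding genes tested under the same ceiling. In snf22∆, 12 partners rose and 4 fell of 191 tested, 6.28% and 2.09%, beside 2.9% and 1.3% of the other coding genes under the ceiling. The median log2 fold change was 0.40, against 0.25. With no fold limit, 95 rose (49.7%, against 44.9%) and 14 fell (7.33%, against 12.4%). In snf22-(D996A-E997A), 8 rose and 6 fell, 4.19% and 3.14%, beside 2.02% and 0.978%, with a median of 0.36 against 0.22. With no fold limit, 88 rose (46.1%, against 39.0%) and 19 fell (9.95%, against 9.0%). Without WT replicate 3 the numbers that rose were 22 and 16.

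Partners that fell included 3 genes of metabolism and uptake. For gut2, the glycerol-3-phosphate dehydrogenase of glycerol use, the mRNA was at 1302, 2158 and 1179 in WT, 394, 391 and 386 in snf22∆ and 229, 226 and 222 in snf22-(D996A-E997A). It was 3.96-fold lower in the deletion and 6.85-fold lower in the point mutant (adjusted p = 1.07e-05 and 1.59e-06). gut2-antisense-1 (SPNCRNA.1235) was at 208, 178 and 249 in WT, 327, 316 and 328 in snf22∆ and 342, 417 and 427 in snf22-(D996A-E997A). It was higher in every mutant library than in any WT library, below the 2-fold limit (log2 fold change 0.62, adjusted p = 0.0037, and 0.90, adjusted p = 0.000539).

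For SPBC23G7.13c, a urea transporter of the plasma membrane, the mRNA was at 219, 335 and 219 in WT, 27.1, 44.2 and 59 in snf22∆ and 13.8, 24.6 and 4.1 in snf22-(D996A-E997A). It was 5.95-fold and 17.9-fold lower (adjusted p = 0.00019 and 2.39e-05). SPBC23G7.13c-antisense-1 (SPNCRNA.1488) was at 211, 144 and 209 in WT, 288, 290.5 and 551 in snf22∆ and 289.9, 280.2 and 333 in snf22-(D996A-E997A), higher in all 6 mutant libraries and under 2-fold, at 1.0 (adjusted p = 0.00548) and 0.68 (adjusted p = 0.0413) on the log2 scale. For SPBC24C6.09c, of the phosphoketolase family, the mRNA was 186 ± 77.6 in WT, 69.2 ± 6.38 in the deletion and 62.4 ± 3.83 in the point mutant, and its antisense RNA 616 ± 74.2, 880.5 ± 19 and 831 ± 71.1 (SD, n = 3). At all 3 loci the mRNA was called lower and the antisense RNA was higher past the adjusted p without being called.

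At gal1, opt3 and fbp1 the mRNA rose while the libraries of the antisense RNA overlapped. For gal1, the galactokinase, the mRNA was at 287, 282 and 338 in WT, 1308, 1122 and 1224 in snf22∆ and 767, 564 and 729.5 in snf22-(D996A-E997A), a rise of 4.04-fold and 2.27-fold (adjusted p = 4.71e-07 and 4.49e-05). gal1-antisense-1 (SPNCRNA.1697) was at 234, 248 and 224 in WT, 221, 255 and 297 in snf22∆ and 199.5, 234 and 198 in snf22-(D996A-E997A) (adjusted p = 0.448 and 0.355). For opt3, an oligopeptide transporter, the mRNA was at 55.6, 110.1 and 70.0 in WT, 366, 302 and 206 in snf22∆ and 332, 269 and 316 in snf22-(D996A-E997A), and the log2 fold changes were 1.90 (adjusted p = 0.000164) and 1.96 (adjusted p = 0.000175). opt3-antisense-1 (SPNCRNA.1279) was at 201, 165 and 280.1 in WT, 193, 215 and 296 in snf22∆ and 172, 185 and 269.5 in snf22-(D996A-E997A) (adjusted p = 0.664 and 0.901).

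For fbp1, the fructose-1,6-bisphosphatase of gluconeogenesis, the mRNA was at 147, 189.6 and 119 in WT, 472, 377 and 381 in snf22∆ and 321, 281 and 261 in snf22-(D996A-E997A). It was called in snf22∆ (1.43, adjusted p = 6.92e-05) and was under 2-fold in snf22-(D996A-E997A) (0.92, adjusted p = 0.00169), while fbp1-antisense-1 (SPNCRNA.1324) was at 332, 207 and 355 in WT, 275, 257 and 276 in snf22∆ and 253, 355 and 379 in snf22-(D996A-E997A) (adjusted p = 0.558 and 0.574). The mRNAs of abc3, a vacuolar heme exporter, and imt2, a mannosyltransferase, rose 3.29-fold and 2.15-fold in snf22-(D996A-E997A), where their antisense RNAs did not pass the test (adjusted p = 0.15 and 0.404).

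The mRNA of mug147, a gene named for its rise in meiosis, was at 145, 245 and 169.9 in WT, 1235, 791 and 582 in snf22∆ and 807, 558 and 583 in snf22-(D996A-E997A). It rose 4.67-fold and 3.48-fold (adjusted p = 9.02e-05 and 0.000509). mug147-antisense-1 (SPNCRNA.1668) was at 155, 216 and 140.1 in WT, 73.5, 83.2 and 114 in snf22∆ and 173, 176 and 142 in snf22-(D996A-E997A), lower in snf22∆ (−0.92, adjusted p = 0.00375, on the log2 scale) and overlapping WT in snf22-(D996A-E997A) (−0.06, adjusted p = 0.833). For cao2, a copper amine oxidase-like protein, the mRNA was at 84.9, 96.5 and 126 in WT, 339, 272 and 302 in snf22∆ and 86.5, 76.7 and 82 in snf22-(D996A-E997A), and cao2-antisense-1 (SPNCRNA.1690) at 1394, 1701 and 1345 in WT, 780.4, 828 and 781 in snf22∆ and 1220, 1148 and 1046 in snf22-(D996A-E997A). In snf22∆ the mRNA rose by 1.58 and the antisense RNA fell by 0.89 on the log2 scale (adjusted p = 2.45e-05 and 3.8e-05), the latter under 2-fold, and in snf22-(D996A-E997A) the mRNA overlapped WT. This antisense RNA shares its strand and part of its length with SPNCRNA.1691.

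The mRNA of meu7, an alpha-amylase homolog, fell in snf22-(D996A-E997A), with 141, 176 and 148 in WT, 159, 169 and 181 in snf22∆ and 56, 52.1 and 66.6 in snf22-(D996A-E997A) (log2 fold change −1.41, adjusted p = 7.41e-05, against WT and −1.54, adjusted p = 7.35e-05, against snf22∆). Its antisense RNA was 575 ± 53.7, 538 ± 18.2 and 581 ± 29.6 in the same order of genotypes (SD, n = 3; adjusted p = 0.91 for snf22-(D996A-E997A) against WT). The remaining called rises were those of abc3, uds1, cwf19, mag1, rad50, SPAPB1A10.13 and SPAPB15E9.02c in snf22∆ and of slx4, eno102 and SPBPB21E7.08 in snf22-(D996A-E997A). The rise of abc3 in snf22∆ (1.04 on the log2 scale) was under 2-fold without WT replicate 3 (0.99) or snf22∆ replicate 1 (0.95). Between the mutants, ste6, eno102 and SPBPB21E7.08 were higher and meu7 and cao2 lower in snf22-(D996A-E997A), beside 0.848% and 0.783% of the other coding genes under the ceiling.

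**Figure D4:**
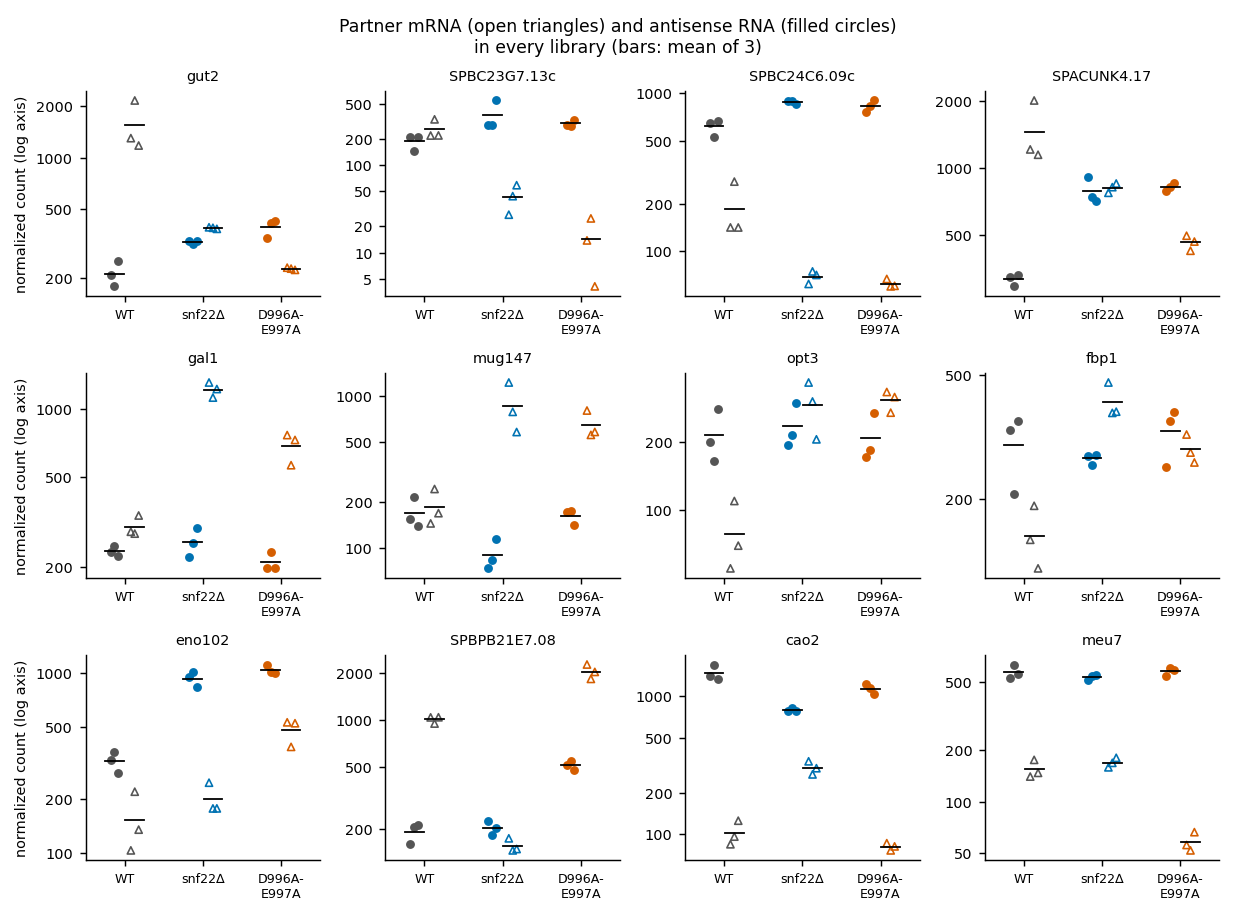
Normalized counts (y axes, log) of the partner mRNA (open triangles) and the antisense RNA (filled circles) at 12 loci in the 3 libraries of each genotype (x axis), with bars at the mean. At gut2, SPBC23G7.13c, SPBC24C6.09c and SPACUNK4.17 the mRNA is lower and the antisense RNA higher in the mutants, and at gal1, opt3 and fbp1 the mRNA is higher over an antisense RNA whose libraries overlap.

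Setting the strands of each locus side by side over 191 pairs with both tested, 8 of 10 called rises and all 19 called falls of an antisense RNA in snf22∆ went with a partner that was not called. In snf22-(D996A-E997A) this held for 7 of 10 rises and 23 of 24 falls. Of all 191 partners, 16 were called in snf22∆ and 14 in snf22-(D996A-E997A), so an uncalled partner was the common case at any locus. Partners below the limit on mean counts in every genotype, such as hop1, SPAC56F8.12 and SPAC1834.13, could not be called. These counts alone therefore do not show that the strands changed separately. With no fold limit, partners rose at 38 of 70 loci (54.3%) where the antisense RNA fell in snf22∆, at 39 of 80 (48.8%) where it did not pass, and at 18 of 41 (43.9%) where it rose. In snf22-(D996A-E997A) the shares were 35 of 62 (56.5%), 35 of 82 (42.7%) and 18 of 47 (38.3%). Across the 191 loci the log2 changes of the strands had Pearson's r = −0.18 and Spearman's rho = −0.22 in snf22∆ and −0.14 and −0.16 in snf22-(D996A-E997A). These correlations are across loci within the same libraries, and loci are not replicates.

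**Figure D5:**
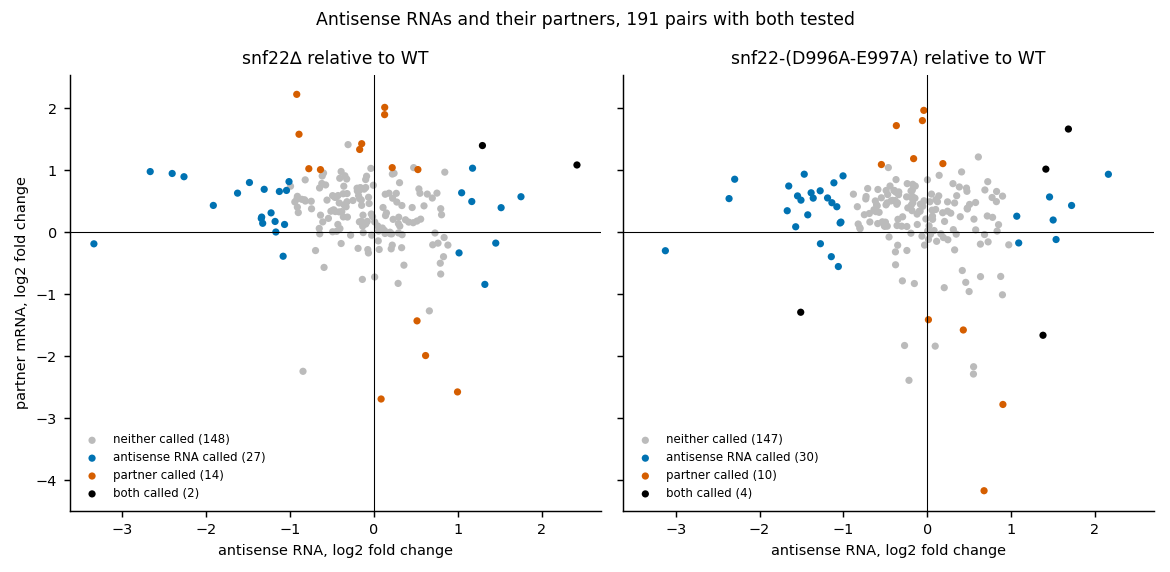
Log2 fold change of each partner mRNA (y axis) against that of its antisense RNA (x axis) for 191 loci, in snf22∆ (left) and snf22-(D996A-E997A) (right) relative to WT, colored by which strand was called. Most called antisense RNAs (blue) lie near the horizontal line of no partner change or somewhat above it. In snf22∆, called partners (orange) lie on both sides of the vertical line, with gut2 and SPBC23G7.13c to its right and mug147 and cao2 to its left. Colors follow the calls, so the uncalled strand is mostly held within the 2-fold limit by that rule.

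The ratio of antisense to partner counts was also tested for each locus (limma on log2 ratios of normalized counts with 1 added, adjusted over 549 pairs, with the same limits for p and fold). In snf22∆ the ratio rose at 17 and fell at 55 of the 191 loci, 8.9% and 28.8%, beside 6.01% and 29.9% of all pairs. In snf22-(D996A-E997A) it rose at 22 and fell at 48, 11.5% and 25.1%, beside 5.83% and 43.7% of all pairs. The median change was −0.56 and −0.48 on the log2 scale. The partner's level in WT entered the rule, and other coding genes under the ceiling had median changes of 0.25 and 0.22. The ratio is therefore not independent of the rule. All pairs are not held to the ceiling and include those opposite strong mRNAs. Between the mutants it was higher in snf22-(D996A-E997A) at 18 and lower at 12, 9.42% and 6.28%, beside 4.37% and 12.6%, and 11 were higher without snf22∆ replicate 2 or without snf22-(D996A-E997A) replicate 3.

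By role of the partner, antisense RNAs of genes for RNA metabolism and translation, such as vrs2 and prp22, rose at 0 and fell at 3 of 23 loci in snf22∆ and rose at 0 and fell at 5 in snf22-(D996A-E997A), with medians of −0.15 and −0.36 (log2). Those of transcription and chromatin genes, among them lid2, brl1, hrp1 and SPBC1773.12, fell at 2 and 4 of 8 and rose at none, with medians of −0.36 and −0.79. At the 56 enzyme genes 4 rose and 2 fell in snf22∆, and 6 rose and 1 fell in snf22-(D996A-E997A), with medians of −0.05 and 0.10. At the 24 meiosis and mating genes, 1 rose and 1 fell in snf22∆ and 1 rose in snf22-(D996A-E997A), while 9 and 7 of their 21 tested mRNAs rose past the adjusted p. By that rule 44.9% and 39.0% of the other coding genes under the ceiling rose, so these mRNAs did not stand out. Of all genes 2.56% and 1.9% were called higher and 3.09% and 3.07% lower.

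At the 12 loci of kinases, phosphatases and GTPases, 1 antisense RNA fell in each mutant, that of pim1, and 10 of 12 mRNAs were higher past the adjusted p in each. The share of other coding genes under the ceiling was 44.9% and 39.0%, and the 12 include fbp1 and gal1. At the 8 transporter loci, antisense RNAs rose at 1 and fell at 1 in snf22∆ and fell at 2 in snf22-(D996A-E997A). At the 13 loci of no known function, 3 rose and 2 fell in snf22∆, and 1 rose and 1 fell in snf22-(D996A-E997A). At the other 52, 1 rose and 7 fell in snf22∆, and 2 rose and 10 fell in snf22-(D996A-E997A). With 8 to 56 loci in a group these counts are small, and the differences between groups were not tested.

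By position, the 32 antisense RNAs inside their partner had median log2 changes of −0.39 (snf22∆) and −0.36 (snf22-(D996A-E997A)), and 3 and 3 were called higher and 5 and 8 lower. The 59 that cover the whole partner had medians of −0.10 and −0.04, with 5 and 2 called higher and 7 and 8 lower. The 61 over its start had −0.08 and −0.08, with 1 and 2 higher and 4 and 6 lower, and the 40 over its end −0.17 and −0.18, with 1 and 2 higher and 3 and 2 lower. Of all genes 2.56% and 1.9% were called higher and 3.09% and 3.07% lower. Their partners had medians of 0.53 and 0.47, 0.34 and 0.21, 0.35 and 0.35, and 0.37 and 0.33 in the same order, and differences between these groups were not tested.

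The genes that keep antisense RNA low were measured from a list of 35, covering histone deacetylation (clr6, alp13, set2), histone chaperones (spt6, spt16, pob3), remodelers (hrp1, hrp3, swr1), RNA interference (ago1, dcr1, rdp1) and the exosome and its helpers (rrp6, dis3, mtl1, red1). None of the 35 was called in any comparison by edgeR's quasi-likelihood test, and none by DESeq2. At an unadjusted p under 0.05 there were 26 in snf22∆, 24 in snf22-(D996A-E997A) and 7 between the mutants, and at the adjusted p alone 21 rose and 4 fell, 17 rose and 4 fell, and 0 rose and 1 fell. By that rule 30.2% of all genes rose and 25.8% fell in the deletion, 25.8% and 22.7% in the point mutant, and 8.13% and 8.64% between the mutants. The median log2 fold change was 0.33 and 0.29 relative to WT, beside 0.06 and 0.06 over all coding genes tested. Most of the 35 had mean normalized counts under 2000 in WT. The other coding genes under the partner ceiling had medians of 0.25 and 0.22. Of these genes 44.9% and 39.0% rose at the adjusted p alone. The largest change of the 35 was 0.79 on the log2 scale. Without WT replicate 3, swr1 was called higher in snf22∆, at a log2 fold change of 1.00.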

How the data were processed

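The authors deposited a matrix of raw counts per gene for the 9 libraries, per the labels aligned with HISAT2 2.1.0 to ASM294v2 and counted with HTSeq 0.10.0; the strand setting of the counting is not given in the sources used here. The deposited tables of the authors' own fold changes were used only for gene names and products. After TMM scaling, edgeR 4.0.16 (R 4.3.3) tested every gene that had 10 or more counts in 3 or more libraries, with genotype as the only factor. Ratios were tested with limma 3.58.1. DESeq2 1.42.0, RLE size factors, no filter, a pseudocount of 5, 2-group fits, a replicate block and leaving out each library were alternatives, and the scripts were tested on simulated data. Tables were made with Python 3.11.15 and pandas 2.3.3.

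The members, the gene lists and the rule for named genes (the largest called changes each way, called partners, the highest and lowest levels, the edges of the thresholds) were chosen with earlier results of these data known. The words symporter and exporter were added to the transport group after the names were seen. Deviations from the group means correlated within each replicate number between snf22∆ and WT (0.291, 0.231 and 0.466), so these libraries look paired. The tests in Results did not use this pairing, and the replicate block was run as an alternative. The numbers did not pair the other groups. No sequence or coordinate is printed because the reference at hand (ASM294v3) is not the build of the files; it gave only overlaps and neighbors. An item withheld for evaluation is not reported here.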

Additional observations from a re-analysis of the deposited data

How the results depend on the processing

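The counts of called antisense RNAs stayed within 1.5 times under every alternative run: RLE size factors, DESeq2, no low-count filter, 2-group fits, the replicate block, the subtraction of the opposite-strand share and leaving out each library. Leaving out 1 library at a time gave 8 to 14 rises and 16 to 22 falls in snf22∆, 9 to 13 and 20 to 25 in snf22-(D996A-E997A), and 7 to 7 and 4 to 5 between the mutants. For partners the ranges were 9 to 22 and 4 to 4, 7 to 16 and 6 to 7, and 3 to 3 and 2 to 3. For the ratio they were 14 to 17 and 44 to 67, 19 to 22 and 40 to 61, and 11 to 19 and 8 to 12. The counts of 22 and 16 partners that rose came without WT replicate 3, the counts of 11 without snf22∆ replicate 2 or snf22-(D996A-E997A) replicate 3, and the cause was not tested. Genes of the antisense control list called in snf22∆ ranged from 0 to 1. With the replicate block, all 29 calls of antisense RNAs (10 rises and 19 falls) and all 16 of partners in snf22∆ were kept, and 71 of 72 ratio calls, that of SPCC569.02c being lost; it changed no other call there. The numbers did not pair the point mutant with WT (correlations −0.243, 0.0484 and 0.162) or with snf22∆ (−0.0328, 0.0942 and 0.0258). There the block left 10 rises and 22 falls of antisense RNAs against WT, those of SPBC1604.04 and cwf19 being lost. Of 76 named calls followed over 1111 alternative values, none changed sign and 6 fell under the 2-fold limit in 11 values: 5 given above with their values, and abc3 in snf22∆ without WT replicate 3 (0.99) or snf22∆ replicate 1 (0.95). SPBC1604.04-antisense-1, not among these, was left at 0 in WT by the subtraction, which turned its direction in the point mutant. With 3 libraries a group and mean counts near 100, changes under 2-fold of the weakest RNAs are the least certain.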

Other observations

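Coding neighbors were listed for each of the 196 by their order in the reference annotation. Where a gene on the RNA's own strand lay upstream, with no other coding gene between, the log2 changes of the RNA and that neighbor over 103 loci had Spearman's rho of 0.16 (snf22∆) and 0.02 (snf22-(D996A-E997A)). For divergent neighbors, over 141 loci, they were 0.10 and 0.07. These are descriptions across loci of the same libraries.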
